A study of Mus with 3 samples.

Results

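Costimulatory receptors and ligands of T cells were followed across the cells of MC38 tumors from mice that differed in the level of the retinoic acid receptor RARα in T cells. The set held 10 of the 32285 genes measured. It comprised 6 receptors of the TNF receptor superfamily (Tnfrsf4, Tnfrsf9, Tnfrsf18, Tnfrsf1b, Tnfrsf25 and Cd27), 2 TNF superfamily ligands (Tnfsf8 and Tnfsf11) and 2 receptors of the CD28 family (Cd28 and Icos). The genes were given by name, with no threshold on a measured value.

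MC38 is a mouse colon adenocarcinoma line. Tumors were taken on day 16 from mice of 3 genotypes, called WT, RARα-KO and RARα-TG. In RARα-KO mice, a Cre driven by the distal Lck promoter (dLck-Cre) acts on a floxed Rara gene in T cells. In RARα-TG mice, the CD2 promoter drives Rara in T cells. The control strains named by the study were C57BL/6 and dLck-Cre mice, and which of them gave the WT tumor was not stated. The sources do not give how many mice stood behind a genotype, and each genotype was treated as 1 sample. For each genotype, 30000 sorted CD45.2+ CD3+ cells were mixed with 10000 unsorted tumor cells and marked with an antibody hashtag. All cells went into 1 pooled 10x Genomics 5′ library with T cell receptor (TCR) sequencing. Other fields of the same labels give spleen as the tissue and naive CD8 T cells after activation as the cell type, against their own tumor protocol. The protocol was followed, and the cells held T cells, myeloid cells and MC38 or stromal cells.

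T cells need a signal from the antigen receptor together with a costimulatory signal. CD28 on resting T cells binds CD80 and CD86 on antigen-presenting cells and gives the first costimulatory signal, and ICOS, which appears after activation, binds ICOS ligand. The receptors OX40 (Tnfrsf4), 4-1BB (Tnfrsf9), GITR (Tnfrsf18), TNFR2 (Tnfrsf1b), DR3 (Tnfrsf25) and CD27 signal mostly through TRAF adaptors to NF-kB and sustain the survival and division of activated T cells. Regulatory T cells, which carry the transcription factor Foxp3, are known for high surface OX40, GITR, TNFR2 and ICOS in tumors. The ligands CD30L (Tnfsf8) and RANKL (Tnfsf11) are made by activated helper T cells.

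By the RefSeq annotation of GRCm38.p6, 6 of the 10 genes lie on chromosome 4. Tnfrsf4 (ENSMUSG00000029075, chr4:156013595-156016613) and Tnfrsf18 (ENSMUSG00000041954, chr4:156026322-156028894) are neighbours, with 9708 bases between them. Tnfrsf9 (ENSMUSG00000028965) lies at chr4:150920155-150946104, Tnfrsf25 (ENSMUSG00000024793) at chr4:152115528-152120119, Tnfrsf1b (ENSMUSG00000028599) at chr4:145212368-145246870 and Tnfsf8 (ENSMUSG00000028362) at chr4:63831202-63861508. Cd28 (ENSMUSG00000026012, chr1:60746388-60773359) and Icos (ENSMUSG00000026009, chr1:60960773-61000322) flank Ctla4 on chromosome 1. Tnfsf11 (ENSMUSG00000022015) lies at chr14:78277446-78308043 and Cd27 (ENSMUSG00000030336) at chr6:125232620-125237136. Other annotated genes overlap Tnfrsf4 (Sdf4), Tnfrsf18 (Gm16008) and Cd27 (E130112N10Rik and Mir8113), so some of their UMIs could belong to the overlapping gene. The other 7 genes have no annotated overlap.

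A median of 4823 UMIs was counted over the 5585 cells, of which 4925 carried 1 hashtag (1927 WT, 2103 RARα-KO and 895 RARα-TG cells). CD8 T cells, which the study calls CTLs, were T cells with a Cd8a UMI and no Cd4 UMI and numbered 846 (WT), 1180 (RARα-KO) and 113 (RARα-TG). CD4 Foxp3-negative T cells numbered 95, 166 and 111, CD4 Foxp3-positive T cells 120, 79 and 150, and myeloid cells 87, 164 and 45, in the same order. Among CD8 T cells, the RARα-TG values therefore rest on the fewest cells. In CD8 T cells, Rara had 85.4 CPM (WT), 78.4 CPM (RARα-KO) and 190.8 CPM (RARα-TG). The RARα-KO allele still gives a transcript, so the Rara counts did not check the RARα-KO label. A level here is the UMIs of a gene summed over the cells of a class and genotype, scaled to the UMIs of all genes in these cells as counts per 1e6 UMIs (CPM). Levels carry exact Poisson 95% intervals and shares exact Clopper-Pearson 95% intervals. Log2 ratios carry exact binomial 95% intervals. With 1 sample for each genotype these intervals cover counting error only, there was no test, and differences between mice or tumors cannot be told apart from differences between genotypes.

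**Figure D1:**
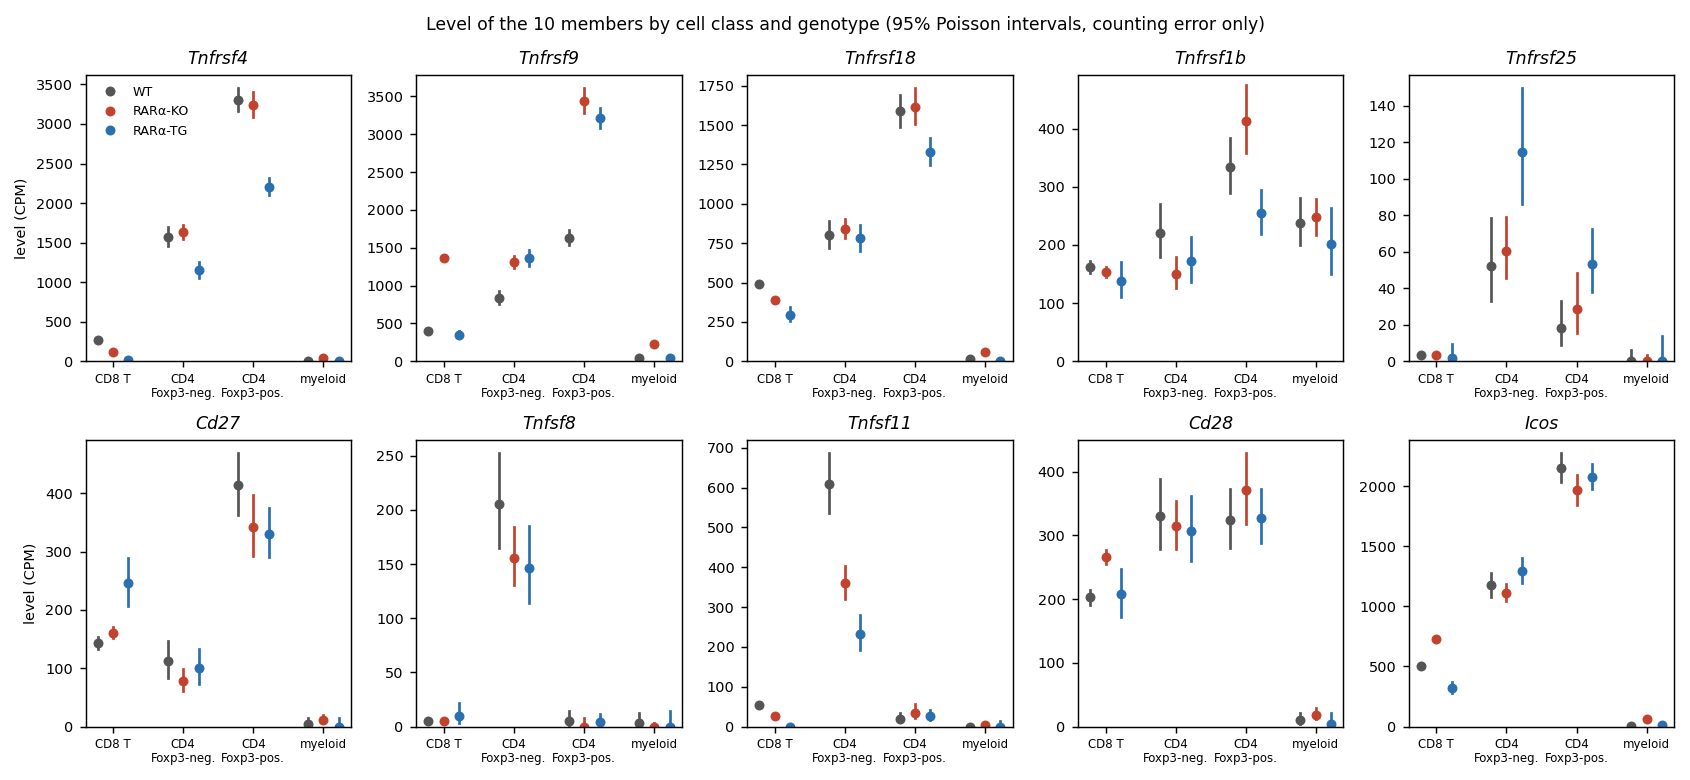
Level (CPM) of each of the 10 genes in CD8 T cells, CD4 Foxp3-negative T cells, CD4 Foxp3-positive T cells and myeloid cells of WT (grey), RARα-KO (red) and RARα-TG (blue). Points are sums over cells and bars are Poisson 95% intervals. Tnfrsf9 in CD8 T cells stands at 405 CPM in WT and 1364 CPM in RARα-KO, while Tnfsf8 and Tnfsf11 are highest in CD4 Foxp3-negative T cells of each genotype.

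The highest levels of Tnfrsf4, the receptor OX40, were in CD4 Foxp3-positive T cells, at 3304 CPM (95% interval 3159.8 to 3452) for WT, 3245 CPM (3087 to 3409) for RARα-KO and 2203 CPM (2097 to 2313) for RARα-TG. WT CD4 Foxp3-negative T cells had 1572 CPM (1457 to 1694), those of RARα-KO 1634 CPM (1550.3 to 1721) and those of RARα-TG 1148 CPM (1053 to 1249). In both CD4 classes the WT and RARα-KO intervals overlapped, and RARα-TG lay below both. In CD8 T cells, WT had 264 CPM (250.4 to 277), RARα-KO 116 CPM (109 to 123) and RARα-TG 19.9 CPM (10.3 to 34.8, 12 UMIs). These 3 intervals did not overlap, so Tnfrsf4 in CD8 T cells was highest in WT and lowest in RARα-TG. The log2 ratio of CD8 T cells was -1.19 in RARα-KO against WT (-1.31 to -1.07) and -3.73 in RARα-TG against WT (-4.68 to -2.92). Without cluster 3, whose leading gene is Gzmf, the RARα-KO ratio was -0.90, inside 2-fold. The share of CD8 T cells with a Tnfrsf4 UMI was 44.3% for WT, 24.4% for RARα-KO and 4.42% for RARα-TG. After each cell was thinned to 1000 UMIs, which evens out depth and left out 1, 2 and 2 shallower cells, the shares were 16.3% (13.9% to 19.0%), 7.22% (5.80% to 8.85%) and 1.80% (0.219% to 6.36%). In thinned MC38 or stromal cells, a cell type that should not make Tnfrsf4, the share was 0.735% in WT and 0.794% in RARα-KO, and 10.5% among the 19 such RARα-TG cells. Those 19 cells also held more T cell RNA, with the 8 T cell markers at a summed 208 CPM against 18.9 CPM in WT and 67.2 CPM in RARα-KO, so their share is not a clean background. The unthinned shares there were 1.84%, 3.97% and 15.8%, at median depths of 30004, 30739 and 19337 UMIs. The interval of the RARα-TG CD8 share covered the background shares of WT and RARα-KO, so Tnfrsf4 was not detectable above background in RARα-TG CD8 T cells.

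The RARα-TG value of Tnfrsf4 depended on how a CD8 T cell was defined. With a Cd8b1 UMI accepted in place of Cd8a, 52 RARα-TG cells joined the class, and 28 of them lay in 2 clusters with regulatory T cell genes, cluster 5 (leading gene Foxp3) and cluster 16 (Rln3, Klrg1 and Areg among its leading genes). These 28 cells held all of the 223 Tnfrsf4 UMIs that joined, and the log2 ratio became 0.10. The RARα-TG ratio of Tnfrsf9 likewise went from -0.20 to 0.82 with these cells. The joining cells had a median of 1 Cd8b1 UMI.

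Tnfrsf9, the receptor 4-1BB, had the largest RARα-KO ratio above WT of the set in CD8 T cells. WT CD8 T cells had 405 CPM (389 to 422), those of RARα-KO 1364 CPM (1338 to 1389) and those of RARα-TG 352 CPM (306 to 402). RARα-KO stood apart from both other genotypes by a log2 ratio to WT of 1.75 (1.69 to 1.82, 3.37-fold), and the RARα-TG ratio of -0.20 (-0.41 to 0.00) was near 0. In thinned cells, the share of CD8 T cells with a Tnfrsf9 UMI was 28.8% for WT, 56.3% for RARα-KO and 20.7% for RARα-TG, against 0.368%, 1.59% and 5.26% among MC38 or stromal cells. The unthinned shares of CD8 T cells were 68.2%, 80.8% and 39.8%, at median depths of 5663, 5589.5 and 4680 UMIs, and those of MC38 or stromal cells 17.3%, 13.5% and 26.3%. In CD4 Foxp3-negative T cells, WT had 834 CPM (750.5 to 924), RARα-KO 1312 CPM (1237 to 1389.8) and RARα-TG 1359.9 CPM (1257 to 1469). WT CD4 Foxp3-positive T cells had 1633 CPM (1532 to 1738), those of RARα-KO 3442 CPM (3279 to 3610.1) and those of RARα-TG 3217 CPM (3088 to 3349). In both CD4 classes, WT was the lowest genotype, and the RARα-KO and RARα-TG intervals overlapped. The thinned shares of CD4 Foxp3-negative T cells with a Tnfrsf9 UMI were 48.4%, 47.0% and 48.6%, so the share of cells did not follow the level. The log2 ratios to WT in CD4 Foxp3-positive T cells were 1.08 for RARα-KO (0.96 to 1.19) and 0.98 for RARα-TG (0.87 to 1.09). This class lay in different clusters by genotype: 100 of 150 RARα-TG cells were in cluster 16, against 10 of 120 WT and 3 of 79 RARα-KO cells, most of which were in cluster 5.

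Without cluster 4, with Serpine2, Ccl5 and the TCR segment Trbv16 as leading genes, which held 441 of the 1180 RARα-KO CD8 T cells, the CD8 ratio of RARα-KO was 1.43. In CD4 Foxp3-negative T cells the RARα-TG ratio of 0.71 (0.52 to 0.90) was 0.25 without cluster 16, in which 271 of the 298 cells with a genotype were RARα-TG.

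Tnfrsf18, the receptor GITR, was highest in CD4 Foxp3-positive T cells, at 1588 CPM (1488 to 1692) for WT, 1617 CPM (1507 to 1734) for RARα-KO and 1330.0 CPM (1248 to 1416) for RARα-TG. CD4 Foxp3-negative T cells had 799.6 CPM (WT), 842 CPM (RARα-KO) and 781 CPM (RARα-TG), and these intervals overlapped. In CD8 T cells, WT had 491 CPM (473 to 510.0), RARα-KO 388 CPM (375 to 402) and RARα-TG 295 CPM (254 to 342). The 3 CD8 values were in the same order as those of its neighbour Tnfrsf4, with log2 ratios nearer to 0 of -0.34 (-0.41 to -0.27) for RARα-KO and -0.73 (-0.96 to -0.52) for RARα-TG.

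Tnfrsf1b, the receptor TNFR2, was found at levels above 100 CPM in every T cell class and genotype. CD8 T cells had 162, 153 and 138 CPM in WT, RARα-KO and RARα-TG, and the intervals of both ratios to WT included 0. WT CD4 Foxp3-negative T cells had 221 CPM (179 to 269.6), those of RARα-KO 151 CPM (126 to 179) and those of RARα-TG 172 CPM (136 to 214). In CD4 Foxp3-positive T cells, WT had 334 CPM (289 to 383), RARα-KO 414 CPM (358 to 475) and RARα-TG 255 CPM (219 to 294). RARα-KO was thus the lowest genotype in Foxp3-negative cells and the highest in Foxp3-positive cells, with log2 ratios of -0.55 (-0.94 to -0.16) and 0.31 (0.02 to 0.60).

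Tnfrsf25, the receptor DR3, was found at low levels and mainly in CD4 T cells. WT CD4 Foxp3-negative T cells had 52.4 CPM (23 UMIs), those of RARα-KO 60.6 CPM (53 UMIs) and those of RARα-TG 115 CPM (54 UMIs). CD4 Foxp3-positive T cells had 18.3, 28.7 and 53.1 CPM, from 11, 14 and 39 UMIs. RARα-TG was highest in both classes, with log2 ratios to WT of 1.13 (0.40 to 1.90) and 1.53 (0.54 to 2.65). The first was 0.23 without cells that had an Ikzf2 or Il2ra UMI, and 0.57 with each clonotype weighted equally. CD8 T cells had 3.20, 3.21 and 1.66 CPM, the last from 1 UMI, and no order between genotypes could be read there.

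Cd27, a receptor of resting and memory T cells that binds CD70, had the opposite order between genotypes in CD8 T cells from Tnfrsf4. Its level was 143 CPM for WT (133 to 153), 161 CPM for RARα-KO (152 to 169.9) and 246 CPM for RARα-TG (208 to 288). The RARα-TG ratio to WT was 0.78 (0.52 to 1.04). The RARα-KO ratio of 0.17 (0.04 to 0.30) was -0.19 without cluster 4. CD4 Foxp3-positive T cells had 414, 342 and 331 CPM and CD4 Foxp3-negative T cells 112, 77.7 and 99.7 CPM, with WT the highest in each. The interval of the ratio excluded 0 only for RARα-TG in Foxp3-positive cells, at -0.32 (-0.58 to -0.06). Among Foxp3-positive cells of cluster 5 alone, the RARα-TG ratio was -0.08 (-0.47 to 0.31).

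Both ligands were genes of CD4 Foxp3-negative T cells. Tnfsf11, which encodes RANKL, had 608 CPM for WT (537 to 686), 359.9 CPM for RARα-KO (321 to 402) and 233 CPM for RARα-TG (192 to 281) there. The 3 intervals did not overlap, with WT the highest and RARα-TG the lowest. The log2 ratio to WT was -0.76 (-0.997 to -0.52) for RARα-KO and -1.38 (-1.72 to -1.06) for RARα-TG. Over all alternatives the ratios stayed below 0, between -1.08 and -0.45 for RARα-KO and, with the cells of the first calling step alone as the upper end, between -2.44 and -0.59 for RARα-TG. CD8 T cells had 55.2 CPM in WT (310 UMIs), 25.4 CPM in RARα-KO (206 UMIs) and no UMI in RARα-TG, where the floor of 3 UMIs corresponds to 4.98 CPM. With RARα-TG CD8 T cells set to that floor, their level was 11.1-fold lower than that of WT. This fold depends on the floor, has no interval and is not a lower limit. The level of RARα-KO was lower than that of WT by a log2 ratio of -1.12 (-1.38 to -0.86). The RARα-KO ratio in CD8 T cells was -0.83 without cluster 4. CD4 Foxp3-positive T cells had 20.01, 34.8 and 27.2 CPM, from 12, 17 and 20 UMIs, with overlapping intervals.

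Tnfsf8, which encodes CD30L, had 205 CPM for WT (165 to 252), 155 CPM for RARα-KO (130.4 to 184) and 146 CPM for RARα-TG (114 to 185) in CD4 Foxp3-negative T cells. The intervals overlapped, and the ratio to WT was -0.40 (-0.79 to 0.00) for RARα-KO and -0.49 (-0.96 to -0.02) for RARα-TG. With the cells of the first calling step alone the latter was 0.94. Foxp3-positive cells had 3, 0 and 3 UMIs in WT, RARα-KO and RARα-TG, so no ratio was formed. CD8 T cells had 5.16, 5.18 and 9.96 CPM, from 29, 42 and 6 UMIs. Cells with a Tnfsf8 UMI made up 33.7% (WT), 27.7% (RARα-KO) and 21.6% (RARα-TG) of CD4 Foxp3-negative T cells (16.8%, 13.3% and 7.21% when thinned) and none of the MC38 or stromal cells.

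Cd28 varied least of the set, between 203 and 371 CPM over the 3 T cell classes and 3 genotypes. In CD8 T cells, WT had 203 CPM (191 to 215), RARα-KO 266 CPM (255 to 277) and RARα-TG 207 CPM (173 to 247). Over all CD8 T cells, RARα-KO was higher than WT by 0.39 (0.29 to 0.49) on the log2 scale, and RARα-TG did not differ from WT beyond counting error. The 6 values of the CD4 classes lay between 308 and 371 CPM, and all 4 intervals of their ratios to WT included 0.

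Icos was highest in CD4 Foxp3-positive T cells, with 2151, 1965 and 2080.1 CPM in WT, RARα-KO and RARα-TG, and lower in CD4 Foxp3-negative T cells, with 1175, 1112 and 1294 CPM. In CD8 T cells the genotypes separated, at 506 CPM (488 to 525) for WT, 733 CPM (714 to 751) for RARα-KO and 322 CPM (278 to 371) for RARα-TG. The log2 ratio to WT was 0.53 (0.47 to 0.60) for RARα-KO and -0.65 (-0.87 to -0.44) for RARα-TG. RARα-KO CD8 T cells were the highest and RARα-TG the lowest, an order not seen in either CD4 class. The RARα-KO ratio was 0.18 without cluster 4, and the RARα-TG ratio was 0.06 when Cd8b1 was accepted in the CD8 gate.

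**Figure D2:**
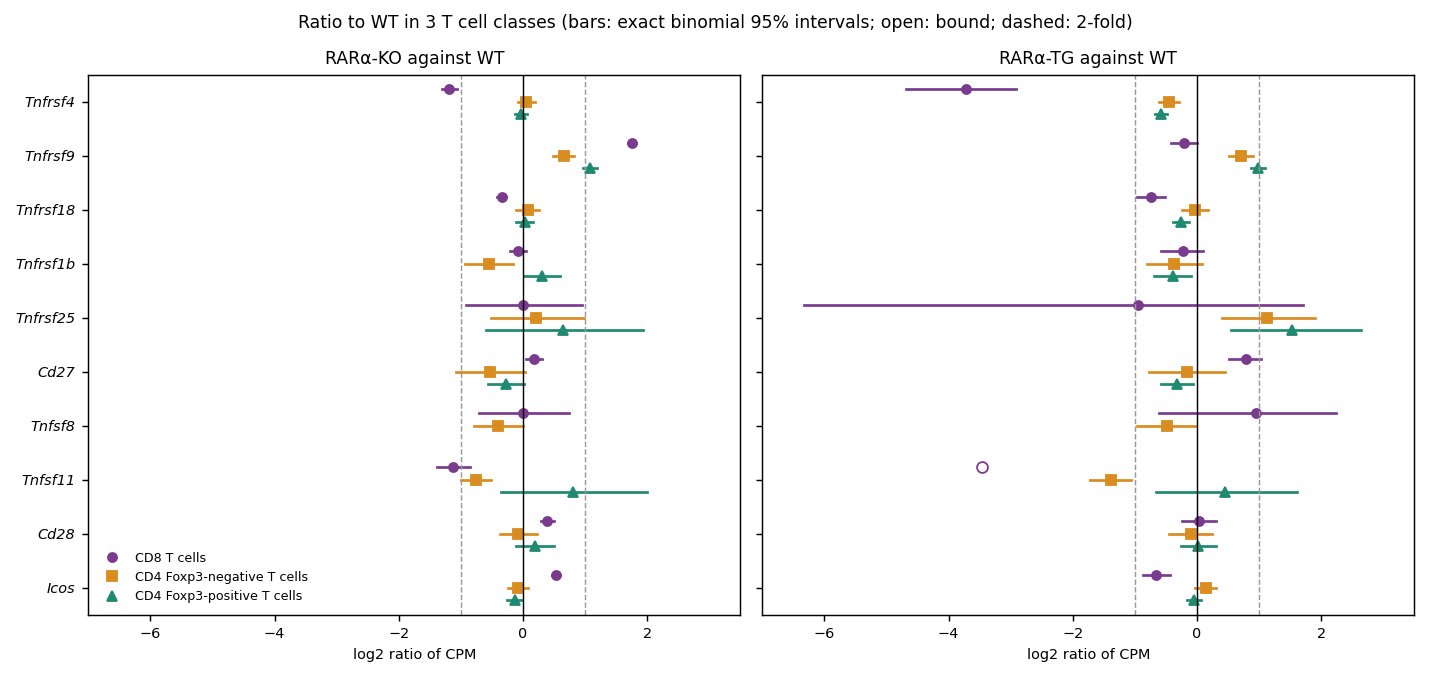
Log2 ratio of CPM to WT of the 10 genes in RARα-KO (left) and RARα-TG (right), in CD8 T cells (circles), CD4 Foxp3-negative (squares) and CD4 Foxp3-positive T cells (triangles). Bars are exact binomial 95% intervals, the open circle is a bound and dashed lines mark 2-fold. Tnfrsf9 is the furthest right of the RARα-KO ratios, at 1.75 in CD8 T cells, and Tnfrsf4 (-3.73, from 12 UMIs) and the bound of Tnfsf11 (-3.47) in CD8 T cells lie far left among the RARα-TG ratios.

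The changes past 2-fold were few. In RARα-KO CD8 T cells, 1 of the 10 genes was higher (Tnfrsf9) and 2 were lower (Tnfrsf4 and Tnfsf11), where 1.29% of the 6607 genes with 0.1 or more UMIs per cell were past 2-fold higher and 1.33% lower. In RARα-TG CD8 T cells, none was higher and 2 were lower (Tnfrsf4 and Tnfsf11), against 4.62% of all genes higher and 5.8% lower. Of the 10 genes, 8 passed the UMI minimum in each of these comparisons. In RARα-KO CD4 Foxp3-negative T cells no gene of the set was past 2-fold, against 3.3% of all genes higher and 4.7% lower. In RARα-TG, Tnfrsf25 was past 2-fold higher and Tnfsf11 lower, against 4.31% and 5.88%. In CD4 Foxp3-positive T cells, Tnfrsf9 was past 2-fold higher in RARα-KO, against 4.73% of all genes higher and 4.43% lower, and Tnfrsf25 was higher in RARα-TG, against 4.84% higher and 3.98% lower. The counts in the CD4 classes were thus close to the background, and the set as a whole had no common direction. The median log2 ratio of the genes with a ratio was 0.00 for RARα-KO and -0.44 for RARα-TG in CD8 T cells, -0.08 and -0.13 in Foxp3-negative, and 0.20 and -0.05 in Foxp3-positive cells. The RARα-TG median in CD8 T cells depended on the processing. It was 0.08 with Cd8b1 accepted in the gate and -0.61 with cells thinned to 1000 UMIs. The medians of all genes lay between -0.05 and 0.02. Both comparisons share the WT cells.

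CD4 Foxp3-positive and CD4 Foxp3-negative T cells of the same WT tumor also differed in this set. Cd27 (1.89, 1.44 to 2.36) and Tnfrsf4 (1.07, 0.95 to 1.20) were past 2-fold higher in Foxp3-positive cells, where 8.1% of all genes were. Tnfrsf18, Tnfrsf9 and Icos were higher by 0.99, 0.97 and 0.87, just inside 2-fold. Tnfsf8 (-5.36), Tnfsf11 (-4.93) and Tnfrsf25 (-1.51) were past 2-fold lower, where 8.1% of all genes were. Cd28 did not differ beyond counting error, at -0.03 (-0.35 to 0.29). In WT CD8 against CD4 Foxp3-negative T cells, none of the 10 genes was past 2-fold higher and 6 were lower, where 4.6% of all genes were higher and 7.4% lower. These were Tnfsf8 (-5.31), Tnfrsf25 (-4.03), Tnfsf11 (-3.46), Tnfrsf4 (-2.58), Icos (-1.22) and Tnfrsf9 (-1.04). For Tnfrsf9 this gap between classes was -1.04 (-1.20 to -0.88) in WT, 0.06 (-0.03 to 0.14) for RARα-KO and -1.95 (-2.18 to -1.72) for RARα-TG. CD8 T cells of RARα-KO thus held as much Tnfrsf9 as CD4 Foxp3-negative T cells of the same tumor, within counting error. For Tnfrsf4 the gap was -2.58 in WT and -3.82 in RARα-KO.

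A cell can lack a Foxp3 UMI by sampling, and the Foxp3-negative gate held cells with markers of regulatory T cells. The 7 marker genes of regulatory T cells summed to 1633 CPM for WT, 988 CPM for RARα-KO and 1774 CPM for RARα-TG CD4 Foxp3-negative T cells, with Foxp3 at 0 by definition, and to 4363 to 5260.1 CPM in Foxp3-positive cells. Of the Foxp3-negative cells, 23 WT, 15 RARα-KO and 36 RARα-TG cells lay in clusters 5 and 16. Without these cells, the ratio of Tnfsf11 to WT was -0.91 for RARα-KO and -1.24 for RARα-TG, and that of Tnfrsf25 was 1.05 in RARα-TG. The ratio of Tnfrsf9 was 0.61 for RARα-KO and 0.16 for RARα-TG. The 11 dendritic cell markers, which include Cd74 and H2-Ab1, summed to 959, 344 and 1014 CPM in the Foxp3-negative class. Of these markers, 7, 6 and 6 were at 0 UMIs there. In MC38 or stromal cells the same markers summed to 476, 727 and 232 CPM. Whether the Foxp3-negative class held dendritic cells, and any part of such cells in the ratios, was not tested.

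**Figure D3:**
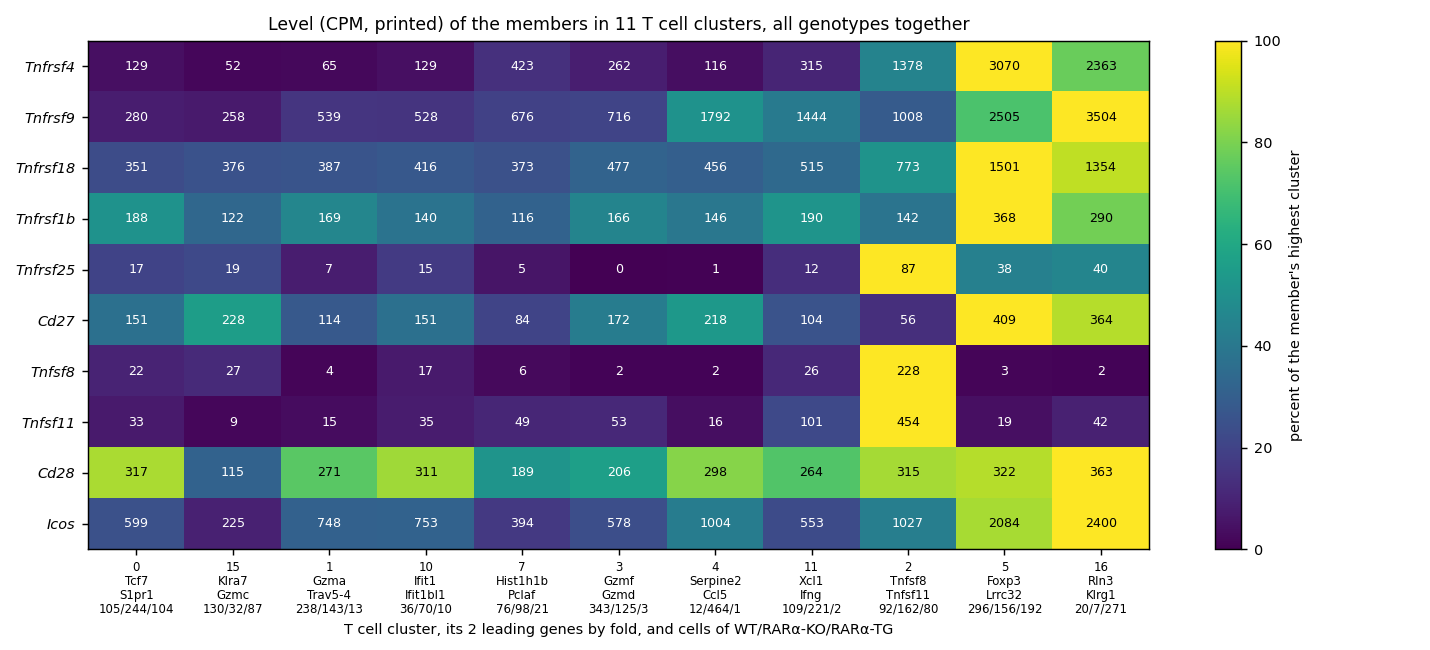
Level (CPM, printed) of the 10 genes in the 11 T cell clusters, all genotypes together, with the color as the percent of the gene's highest cluster. Each column gives the cluster's number, its 2 leading genes by fold and its cells of WT, RARα-KO and RARα-TG. Tnfrsf4 peaks in cluster 5 (3070.4 CPM), Tnfrsf9 in cluster 16 (3504 CPM), and Tnfsf8, Tnfsf11 and Tnfrsf25 in cluster 2.

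The 11 T cell clusters, formed without the genes of the set, separated most of the receptors from the ligands. Cluster 5, led by Foxp3, and cluster 16, whose leading genes include Klrg1 and Areg, had the highest levels of Tnfrsf4, Tnfrsf9, Tnfrsf18, Tnfrsf1b, Cd27, Cd28 and Icos. Cluster 16 held 20 WT, 7 RARα-KO and 271 RARα-TG cells, so its levels are largely those of the RARα-TG tumor. Cluster 2, a Cd4+ cluster with Il13 and Csf2 among its leading genes, had 228 CPM of Tnfsf8, where the other clusters had 2.07 to 27.0 CPM. It also had 454 CPM of Tnfsf11, where the cluster next in order, cluster 11, had 101 CPM. Among the clusters that held mostly CD8 T cells, Tnfrsf9 was highest in cluster 4, led by Serpine2, Ccl5 and Trbv16 (1792 CPM), and in cluster 11, led by the cytokine genes Xcl1, Ifng and Ccl1 (1444 CPM). It was lower in cluster 3, led by Gzmf and other granzyme genes (716 CPM), in the cycling cluster 7 (676 CPM) and in cluster 0, led by the resting T cell genes Tcf7 and S1pr1 (279.6 CPM). Cluster 4 held 464 RARα-KO but only 12 WT and 1 RARα-TG cells.

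Because the genotypes filled the clusters unequally, ratios were also taken among CD8 T cells of the same cluster. The RARα-KO ratio of Tnfrsf9 to WT was 1.93 (1.72 to 2.15) in cluster 1, 1.29 (1.18 to 1.40) in cluster 3, 1.54 (1.33 to 1.75) in cluster 7 and 2.15 (1.94 to 2.36) in cluster 11. In cluster 0 it was 0.38 (-0.05 to 0.82). The higher Tnfrsf9 of RARα-KO was thus present in 4 of the 5 clusters with 30 or more CD8 T cells of both genotypes, and in cluster 0 it was not detectable beyond counting error. For Tnfrsf4 the ratio was -0.95, -1.33, -1.16 and -1.75 in clusters 1, 3, 7 and 11, with intervals below 0, and -0.50 (-1.55 to 0.64) in cluster 0. For Tnfsf11 it was -2.20, -2.40, -0.77 and -1.84 in clusters 0, 1, 3 and 11, and 0.08 (-0.58 to 0.75) in cluster 7. In cluster 0 it rested on 8 against 13 UMIs (-3.68 to -0.82) and in cluster 1 on 2 against 19 UMIs (-5.55 to -0.35). Icos was at 0.83 in cluster 1, 0.55 in cluster 11, 0.14 in cluster 3, 0.12 in cluster 7 and -0.30 in cluster 0, so its direction differed between clusters. Cd28, higher over all RARα-KO CD8 T cells, was at 0.06, 0.11, 0.06 and 0.23 in clusters 1, 3, 7 and 11. The intervals of these ratios included 0, and in cluster 0 Cd28 was at 0.47 (0.02 to 0.95).

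For RARα-TG, 60 of the 113 CD8 T cells lay in cluster 0, which held 56 WT CD8 T cells. Within it, the RARα-TG ratio to WT was -0.92 (-1.32 to -0.53) for Icos, -0.81 (-1.29 to -0.33) for Tnfrsf18 and -0.03 (-0.56 to 0.50) for Tnfrsf9. Cd27, higher over all CD8 T cells, was at 0.31 (-0.27 to 0.91) there. The lower Tnfrsf18 and Icos of RARα-TG CD8 T cells were therefore also seen within the cluster, and the Cd27 difference was not detectable. Tnfrsf4 had 4 UMIs in the RARα-TG cells and 12 in the WT cells of the cluster. Its ratio of -1.82 (-3.91 to -0.10) rests on these few UMIs and has a wide interval. In CD4 Foxp3-negative T cells of cluster 2, Tnfsf11 was lower than in WT by -1.03 (-1.29 to -0.78) for RARα-KO and -1.46 (-1.85 to -1.08) for RARα-TG. Tnfsf8 was at -0.62 (-1.03 to -0.21) for RARα-KO and -0.31 (-0.82 to 0.19) for RARα-TG in the same cells. Over the whole class, only the RARα-TG interval of Tnfsf8 excluded 0, and within cluster 2 only the RARα-KO interval did. In CD4 Foxp3-positive T cells of cluster 5, Tnfrsf9 was higher by 1.24 (1.12 to 1.36) for RARα-KO and 0.87 (0.71 to 1.03) for RARα-TG, and Tnfrsf4 was at 0.08 and -0.47.

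**Figure D4:**
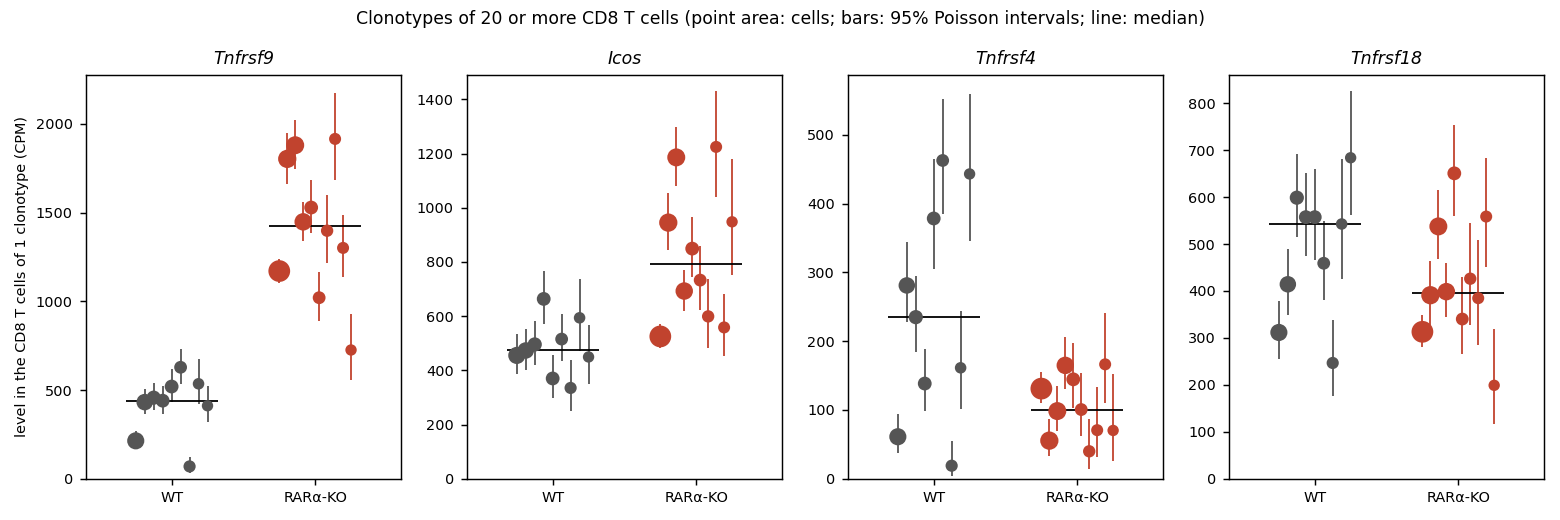
Level (CPM) of Tnfrsf9, Icos, Tnfrsf4 and Tnfrsf18 in each TCR clonotype of 20 or more CD8 T cells, 9 in WT (grey) and 10 in RARα-KO (red), with the point area by number of cells, Poisson 95% intervals and the median as a line. For Tnfrsf9 the WT clonotypes reach 628 CPM and the RARα-KO clonotypes start at 726 CPM, while the other 3 genes overlap.

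A TCR clonotype holds cells with the same TCR, taken as the progeny of 1 T cell. Clonotypes of a genotype share the tumor and the library and are not replicates of a genotype. Of the clonotypes with 20 or more CD8 T cells, 9 were WT and 10 RARα-KO. Tnfrsf9 ranged from 69.6 to 628 CPM with a median of 440.1 CPM in the WT clonotypes and from 726 to 1916 CPM with a median of 1423 CPM in the RARα-KO clonotypes. The ranges did not overlap, and Tnfrsf9 was the only gene of the set that separated them. The counting intervals of the lowest RARα-KO clonotype (556 to 930 CPM) and the highest WT clonotype (537 to 731 CPM) did overlap. For most of the RARα-KO clonotypes the cluster with the most cells was cluster 4, and for most of the WT clonotypes it was cluster 3. Of the 6607 genes tested in CD8 T cells, 0.0908% (6 genes) were higher in every such RARα-KO clonotype than in every WT clonotype and 0.0605% (4 genes) were lower. Icos ranged from 335 to 664 CPM in WT and from 525 to 1225 CPM in RARα-KO clonotypes. Tnfrsf4 ranged from 19.0 to 463 CPM in WT (median 235 CPM) and from 39.9 to 166 CPM in RARα-KO (median 99.5 CPM), and Tnfrsf18 from 247 to 684 CPM and from 199 to 651 CPM. These ranges overlapped.

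Within a genotype, the level of Tnfrsf9 was also higher in the pooled cells of clonotypes with 10 or more cells than in those of clonotypes with 1 cell. CD8 T cells of clonotypes with 10 or more cells had 429 CPM in WT and 1436 CPM in RARα-KO, and those of clonotypes with 1 cell had 284 and 766 CPM. The log2 ratio between them was 0.59 (0.37 to 0.82) in WT and 0.91 (0.76 to 1.06) in RARα-KO. Single clonotypes did not all follow this. The largest WT clonotype (64 cells) had 214 CPM and a WT clonotype of 25 cells had 69.6 CPM, both below 284 CPM. The other WT clonotypes with 20 or more cells lay above it. The RARα-KO clonotype of 20 cells had 726 CPM, and the larger ones lay above 766 CPM. Tnfsf8 went the other way between the pooled cells, at -3.05 (-4.63 to -1.59) in WT and -2.19 (-3.52 to -0.74) in RARα-KO. It was below the UMI minimum in this class, with 29 UMIs in all WT and 42 in all RARα-KO CD8 T cells. Tnfsf11 was lower in the pooled cells of RARα-KO clonotypes with 10 or more cells (-1.73, -2.31 to -1.13) but not of WT ones (0.27, -0.28 to 0.86).

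Per cell, the number of the 10 genes with a UMI after thinning to 1000 UMIs averaged 1.70 for WT, 1.96 for RARα-KO and 1.26 for RARα-TG CD8 T cells. It averaged 3.21, 3.14 and 2.93 in CD4 Foxp3-negative and 4.23, 4.41 and 4.07 in CD4 Foxp3-positive T cells. At least 3 of the 10 genes were found in 23.2% (20.4% to 26.2%) of WT, 33.1% (30.4% to 35.9%) of RARα-KO and 13.5% (7.77% to 21.3%) of RARα-TG CD8 T cells, and in 89.3% to 92.4% of Foxp3-positive cells. The background among MC38 or stromal cells was 0 of 272 WT cells (0% to 1.35%) and 0 of 126 RARα-KO cells (0% to 2.89%). The interval of the RARα-TG share of CD8 T cells lay above both. It overlapped the interval of the RARα-TG MC38 or stromal cells, 1 of 19 (5.26%, 0.133% to 26.0%). Those 19 cells held more T cell RNA and are not a clean background. Tnfrsf9 was found more often in CD8 T cells that also had a Tnfrsf4 UMI. In WT the shares were 41.3% (33.0% to 49.99%) of cells with and 26.3% (23.1% to 29.7%) of cells without a Tnfrsf4 UMI, and in RARα-KO 71.8% (61.0% to 81.0%) and 55.1% (52.1% to 58.1%). RARα-KO CD8 T cells without a Tnfrsf4 UMI thus held Tnfrsf9 more often than WT cells that had one.

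The binding partners of the 10 genes were mostly at low levels in T cells. Of the 13 ligands and receptors that bind a gene of the set, 5 or 6 passed the UMI minimum in each T cell comparison. In CD8 T cells, Tnf, a ligand of TNFR2, was past 2-fold higher in RARα-KO, with 76.3 CPM against 37.2 CPM in WT (log2 ratio 1.04, 0.81 to 1.27). Its RARα-TG level was 3.32 CPM, from 2 UMIs (-3.49, -6.54 to -1.62). Lta, another ligand of TNFR2, and Cd80 were also past 2-fold lower in RARα-TG, at -1.03 (-2.18 to -0.07) and -2.52 (-5.58 to -0.63). In CD4 Foxp3-negative T cells, Cd70, the ligand of CD27, had 63.8 CPM for WT, 27.4 CPM for RARα-KO and 8.49 CPM for RARα-TG, from 28, 24 and 4 UMIs. Lta (-1.49) and Cd86 (-1.44) were past 2-fold lower in RARα-KO, and Tnf (-2.33) and Cd86 (-1.03) in RARα-TG. In CD4 Foxp3-positive T cells, Tnf was past 2-fold higher in RARα-KO (2.996, 1.47 to 4.98, 26 UMIs against 4), and Cd86 lower (-1.70, -4.17 to 0.19). Tnfrsf8, the receptor of CD30L, was higher in RARα-TG Foxp3-positive cells, with 59.9 CPM against 20.01 CPM in WT (1.58, 0.64 to 2.64), and Lta was lower (-1.07, -2.65 to 0.39). Tnf therefore had the order of Icos in CD8 T cells, RARα-KO above WT and WT above RARα-TG. The median log2 ratio of the partners past the UMI minimum was 0.27 in RARα-KO and -1.03 in RARα-TG CD8 T cells, over 5 genes each.

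The lists of related genes are read against the shares of all genes past 2-fold given above. Among 19 other TNF receptors, of which 2 to 4 passed the UMI minimum in a T cell comparison, 1 was past 2-fold in any T cell comparison, Tnfrsf1a in RARα-TG CD8 T cells (1.46, 0.83 to 2.05). Among 8 other TNF ligands, of which 1 to 4 passed, it was Tnfsf14 in RARα-KO CD8 T cells (1.28, 0.73 to 1.86). Of 9 measured immunoglobulin and SLAM family receptors, Ctla4 (-1.32) and Pdcd1 (-1.50) were lower and Slamf6 (1.32) higher in RARα-TG CD8 T cells, 3 of the 8 that passed, where 4.62% of all genes were higher and 5.8% lower. Btla (1.28, -0.30 to 3.12) was past 2-fold higher in RARα-TG Foxp3-negative and Slamf6 (-1.20) lower in RARα-TG Foxp3-positive cells. Of 16 TRAF adaptor and NF-kB genes, the receptors' signalling route, 1 was past 2-fold lower in each of 3 comparisons: Rel (-1.12) in RARα-TG CD8 T cells, Traf5 (-1.41) in RARα-KO and Map3k14 (-1.62) in RARα-TG Foxp3-negative cells. The TRAF and NF-kB list had a median of -0.13 for RARα-KO and -0.06 for RARα-TG CD8 T cells, where those of all genes were 0.02 and 0.01. Of the 16 genes, 0 were past 2-fold in RARα-KO CD8 T cells, where 1.29% of all genes were higher and 1.33% lower. In RARα-TG CD8 T cells it was 1 of 16, where 4.62% of all genes were higher and 5.8% lower. Both counts were near the background.

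**Figure D5:**
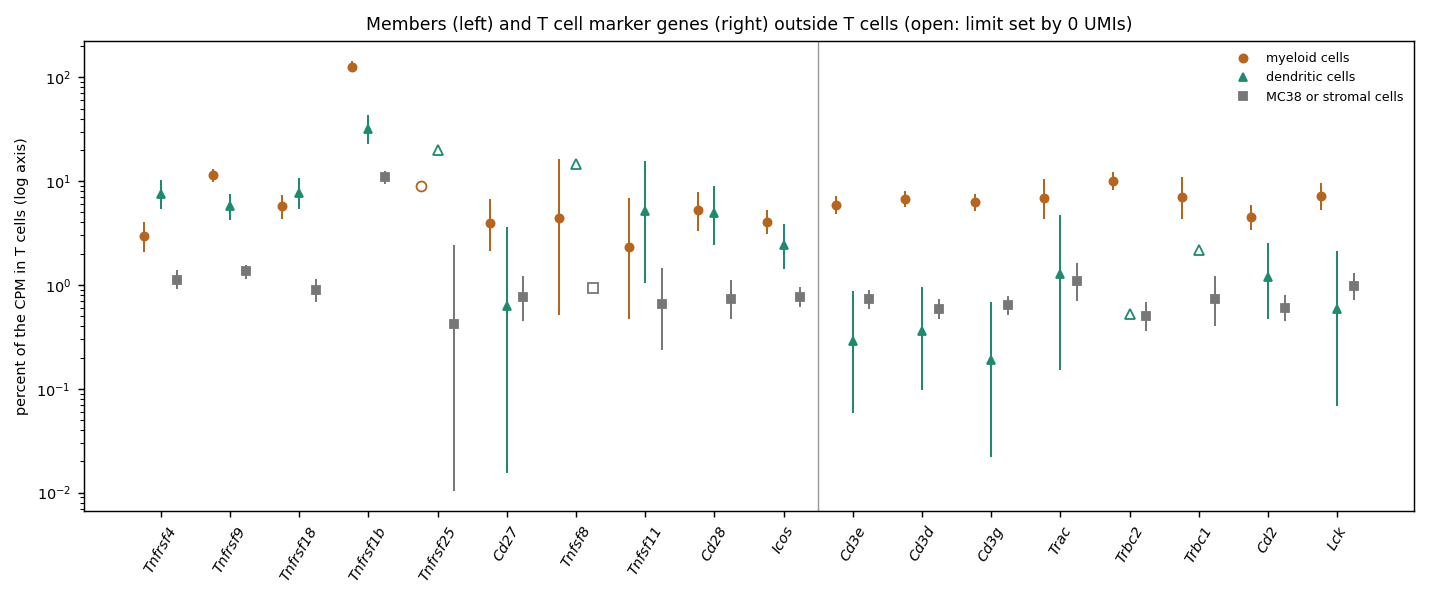
Level of the 10 genes (left of the line) and of 8 T cell marker genes (right) in myeloid, dendritic and MC38 or stromal cells, as percent of the level in T cells on a log axis. Bars are 95% intervals and open symbols are genes with 0 UMIs, drawn at the floor of 3 UMIs. Tnfrsf1b lies at 127% in myeloid cells, while their other levels lie between 2.32% and 11.5%.

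Outside T cells, Tnfrsf1b was the only gene of the set at a level like that of T cells. WT myeloid cells had 238 CPM (201 to 281), those of RARα-KO 247 CPM (217 to 279.8) and those of RARα-TG 201 CPM (151 to 263), which was 127% (115% to 140%) of the T cell level over all genotypes. The genotypes did not differ beyond counting error, with log2 ratios to WT of 0.05 (-0.25 to 0.36) and -0.24 (-0.73 to 0.22). The neutrophil-like cluster 6, led by S100a9 and S100a8, had 535 CPM of Tnfrsf1b and 4931 CPM of its ligand Tnf. The macrophage-like cluster 9, led by Lyz2, Arg1 and C1qb, had 219 and 795 CPM.

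The other 9 genes had low levels in myeloid cells. Tnfrsf25 had no UMI in any of the 296 myeloid cells. Tnfrsf9 had 47.0 CPM for WT, 225 CPM for RARα-KO and 49.4 CPM for RARα-TG myeloid cells, Tnfrsf18 had 13.4, 59.3 and 0 CPM, Icos had 8.39, 61.3 and 15.2 CPM, and Tnfrsf4 had 0, 40.5 and 3.80 CPM. RARα-KO was the highest for each of these 4 genes. The 8 T cell marker genes moved with them, at a summed 149 CPM for WT, 612 CPM for RARα-KO and 110.1 CPM for RARα-TG myeloid cells, with none at 0 in WT and RARα-KO and 1 in RARα-TG. In myeloid cells without a Cd3e, Cd3d or Cd3g UMI (79 WT, 145 RARα-KO and 42 RARα-TG cells), Icos had 0 UMIs in RARα-KO, Tnfrsf4 had 1 and Tnfrsf18 had 5. Tnfrsf9 had 32.9 CPM for WT (19.5 to 52.0), 84.4 CPM for RARα-KO (65.4 to 107) and 52.2 CPM for RARα-TG (27.8 to 89.2) in those cells, a RARα-KO ratio of 1.36 in place of 2.26. With each myeloid cell thinned to 1000 UMIs the ratio was 0.39. Tnfrsf1b had 239.6, 254 and 209 CPM there.

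In the 100 dendritic cells, Tnfrsf4 had 57.2 CPM (42.2 to 75.8), Tnfrsf9 71.5 CPM (54.5 to 92.0) and Tnfrsf18 48.8 CPM (35.0 to 66.3). These were 7.49%, 5.70% and 7.68% of the T cell levels, where Cd3e was at 0.290%, Cd3d at 0.363% and Cd3g at 0.188%. In the 95 dendritic cells without a Cd3 UMI, the levels were 57.3, 69.8 and 48.6 CPM, nearly as high. Icos went from 19 UMIs to 1. The 3 receptors in dendritic cells therefore did not move with the T cell markers, while Icos did. Cluster 14, the dendritic cluster with Ccl22 and Il4i1 among its leading genes, was also the myeloid or dendritic cluster with the most Tnfsf9 (266 CPM), Cd86 (538 CPM), Cd80 (254 CPM), Cd70 (33.5 CPM) and Tnfsf4 (31.5 CPM), the ligands of 4-1BB, CD28, CD27 and OX40. In MC38 or stromal cells the 10 genes were at 0.420% to 1.35% of the T cell level where a UMI was found, apart from Tnfrsf1b at 10.8%, and the T cell markers were at 0.503% to 1.09%.

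Across the 9 sums of 3 T cell classes and 3 genotypes, some of the genes had nearly the same pattern. These sums share 1 library, so Pearson's r of log2(CPM + 10) is a description. Among the genes of the set, r was highest between Tnfrsf18 and Icos (0.96), Tnfrsf4 and Tnfrsf18 (0.95) and Tnfrsf4 and Icos (0.94), and the ligands Tnfsf8 and Tnfsf11 had 0.88. Among all genes with 50 or more CPM in at least 1 sum, Tnfrsf4 was most like Bcl2l1 (0.99), Eea1 and Vamp8, and Tnfrsf9 was most like Plin2 (0.98), Ecm1 and Mrpl33. Tnfrsf18 was most like Psen2 (0.98), Fam110a and Nrip1, Tnfrsf1b most like Klc1 (0.97), Zfp787 and Fam49b, and Tnfrsf25 most like Slamf1 (0.95), Nfkb1 and Ptbp1. Cd27 was most like Panx1 (0.96), Smc4 and Ptma. Tnfsf8 was most like Xlr4b (0.99), Ramp3 and Cd40lg, and Tnfsf11 most like Marcksl1 (0.98), Uhrf2 and Srp9. Icos was most like Ctla4 (0.99), Ctsb and Tnik, and Cd28 most like Srgn (0.98), Arf1 and Msi2. Ctla4, the inhibitory receptor that competes for the ligands of CD28, lies between Cd28 and Icos, 44940 bases from Icos.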

How the data were processed

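The authors aligned 1 pooled 10x 5′ library to mm10 with Cell Ranger and deposited raw UMI counts per gene and hashtag for 730308 barcodes and a table of TCR contigs. The labels name Cell Ranger 6.1.0, and the matrix header names version 4. Cells were called again (a UMI threshold, 2433 barcodes, then a test against empty barcodes, 3152 more) with Python 3.11.15, numpy 2.4.6, scipy 1.17.1 and pandas 2.3.3. HTODemux of Seurat 5.3.0 (R 4.3.3, quantile 0.99) gave 4925 singlets, 426 doublets between genotypes, which were removed, and 234 cells without a hashtag. Doublets within a genotype were not removed.

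Clusters came from scanpy 1.11.5 (Leiden, resolution 1, 30 components, 2000 variable genes without the 10 genes and their lists). T cell clusters had a clonotype in over 50% of barcodes. CD4 classes had a Cd4 UMI and no Cd8a or Cd8b1 UMI. T cells outside these gates were left out of the classes (396 WT, 297 RARα-KO and 410 RARα-TG cells).

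Since each genotype is 1 sample, no test was run. Past 2-fold was counted over genes that averaged at least 0.1 UMIs in either group's cells, 0 was set to 3 UMIs, and no ratio was given with both groups at or under 3. The steps were tested on simulated data. The 10 genes and all lists were chosen with earlier results of these data known. Named were the 10 genes, per list and comparison up to 3 genes with the largest change past 2-fold, the partners, and the 3 genes most like each of the 10. Values for single clusters, and Rara, were named after they were seen. Alternatives changed the T cell and CD8 gates, depth, scaling, weighting, cell calling, hashtag and mitochondrial cutoffs. Those without clusters 4, 5 or 16, or without myeloid cells with a Cd3 UMI, were chosen after seeing the data. The list of CD28 and ICOS signalling genes is not reported here.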

Additional observations from a re-analysis of the deposited data

Results flagged for a closer look

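For 3 genes, the ratio to WT had opposite signs in 2 T cell classes, with both counting intervals excluding 0. The difference between classes was not tested in any of them, since each genotype is 1 sample. Tnfrsf1b had a log2 ratio of RARα-KO to WT of -0.55 in CD4 Foxp3-negative and 0.31 in CD4 Foxp3-positive T cells. Both signs were kept within clusters, at -0.51 (-1.01 to -0.006) in Foxp3-negative cells of cluster 2. In Foxp3-positive cells of cluster 5 the Tnfrsf1b ratio was 0.48 (0.17 to 0.79). Icos had a ratio of RARα-KO to WT of 0.53 in CD8 and -0.13 in CD4 Foxp3-positive T cells. In Foxp3-positive cells of cluster 5 (74 RARα-KO and 105 WT cells) the Icos ratio was 0.02 (-0.10 to 0.15). Cd27 had a ratio of RARα-TG to WT of 0.78 in CD8 and -0.32 in CD4 Foxp3-positive T cells. Within clusters, it was 0.31 (-0.27 to 0.91) in CD8 T cells of cluster 0. In Foxp3-positive cells of cluster 5 it was -0.08 (-0.47 to 0.31). Both of these intervals included 0.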

How the results depend on the processing

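Of the ratios of single genes recomputed under the alternatives, 601 stayed within the counting interval, 110 moved outside it and 5 changed sign, counting a change of sign only where the interval of the reported ratio excluded 0. Those 5 were Cd27 in RARα-KO CD8 T cells (-0.035 with each clonotype weighted equally and -0.19 without cluster 4), Tnfrsf4 (0.10) and Icos (0.063) in RARα-TG CD8 T cells with Cd8b1 in the gate, and Tnfsf8 in RARα-TG CD4 Foxp3-negative T cells with only the first step of cell calling (0.94). The cause was not tested. Of the cells that Cd8b1 added, 28 of 52 from RARα-TG lay in clusters 5 and 16, against 12 of 88 from WT and 1 of 111 from RARα-KO. Tnfrsf9 in RARα-KO CD8 T cells lay between 1.43 and 2.11 and Tnfrsf4 between -1.41 and -0.90.

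The counts past 2-fold moved as follows. Lower in RARα-KO CD8 T cells, 2 became 1 without cluster 3, without cluster 4, with each clonotype weighted equally and with the first step of cell calling. In RARα-TG CD8 T cells, higher went from 0 to 1 with Cd8b1 in the gate, thinned cells, no cluster 3 or a top hashtag 4 times the next, and lower from 2 to 1 with Cd8b1, thinned cells or equal clonotypes. In RARα-KO Foxp3-negative cells, higher went from 0 to 1 (first step) or 2 (no Ikzf2 or Il2ra UMI), and lower from 0 to 2 (no Ikzf2 or Il2ra UMI). In RARα-TG Foxp3-negative cells, higher went from 1 to 0 (thinned cells, equal cells or equal clonotypes), and lower from 1 to 2 (thinned cells, equal clonotypes, no Ikzf2 or Il2ra UMI) or 0 (first step). In Foxp3-positive cells, higher went from 1 to 0 (thinned), 2 (equal cells) or 3 (first step) in RARα-KO, and from 1 to 2 (thinned or first step) or 0 (equal clonotypes) in RARα-TG.

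Among CD8 T cells, the total of UMIs was lowest in RARα-TG, with 602657 from 113 cells. WT had 5619873 from 846 cells and RARα-KO 8109160 from 1180 cells. The median depth per cell was 4680 UMIs in RARα-TG, 5663 in WT and 5589.5 in RARα-KO. Barcodes too low to hold cells had 592 CPM of Tnfrsf4, 570.2 of Tnfrsf9, 541 of Icos and 418 of Tnfrsf18, so free RNA held these genes. No paired analysis was possible because each genotype is 1 sample.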
